A study of Mus musculus with 12 samples.

Results

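Astrocyte genes were followed in a table of non-coding transcript counts from mouse brain. The set holds 44 genes that are widely used as markers or functional genes of astrocytes, and a row of the table belongs to it when GENCODE M21 gives its transcript the name of one of these genes. Rows were found for 28 of the 44 genes, 73 rows among the 48033 rows of the table. The other 16 genes (Aqp4, S100b, Sox9, Serpina3n, Mt1, Mt2, Mt3, Slc7a10, Ndrg2, Mlc1, Gpr37l1, Plpp3, Sparcl1, Ntrk2, Id2 and Id4) have no row in the table analysed here. RNA was sequenced from the hippocampus and the cerebral cortex of mice aged 7 months on a C57BL/6J background, 3 libraries in each of 4 groups, named here WT hippocampus, 5 × FAD hippocampus, WT cortex and 5 × FAD cortex. The 5 × FAD mice carry human APP and PS1 transgenes with familial Alzheimer's disease mutations under Thy1 elements, which drive expression in neurons, and the WT mice are non-transgenic. The labels give no treatment for any group.

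Astrocytes are the glial cells that clear glutamate and potassium from the synaptic space, store glycogen, feed neurons and contact blood vessels with their end-feet. They are joined to each other by gap junctions. Around amyloid plaques they become reactive, a state known for more glial fibrillary acidic protein, vimentin and complement, and for a loss of some homeostatic functions in some of the cells.

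None of the 73 rows is a protein-coding transcript. In the annotation, 38 are retained-intron transcripts and 35 are processed transcripts, so the values below are those of non-coding transcripts of astrocyte genes and not of their mRNAs. A median of 40.5% of the bases of a row lay outside the coding exons of the same gene (range 0 to 98.2%), and 3 rows lay wholly within coding-transcript exons. Introns of a coding transcript were held whole in 13 rows of 8 genes. Reads from shared exons cannot be told apart from mRNA reads by sequence, and the program that divided reads between transcripts is not given in the sources used here. Of the 28 genes, 10 had 1 row, and the largest number was the 7 rows of Mfge8.

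The sequences below show what sets some rows of the genes with the main results apart from the coding mRNAs. For Dbi the row with most counts is shown, not Dbi-203, which held most of the Dbi difference in the hippocampus. They were read from the GENCODE M21 transcript sequences (GRCm38) and run 5′ to 3′ on the strand of the gene. In each of the first 4, lower case gives the last 40 bases of an exon that a coding transcript shares, and capitals give the first 40 bases of the intron that follows, into which the row runs on and which the coding transcript removes. Each stretch of capitals begins with GT, the usual first bases of an intron.
Slc1a3-202, chr15:8650809-8650888, minus strand: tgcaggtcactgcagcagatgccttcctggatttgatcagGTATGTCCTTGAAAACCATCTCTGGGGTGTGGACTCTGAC
Dbi-205, chr1:120116346-120116425, minus strand: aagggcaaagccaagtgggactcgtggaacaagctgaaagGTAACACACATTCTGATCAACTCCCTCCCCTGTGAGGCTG
Nfib-208, chr4:82498198-82498277, minus strand: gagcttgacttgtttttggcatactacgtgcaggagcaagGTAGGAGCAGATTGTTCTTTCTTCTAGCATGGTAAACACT
Nfib-209, chr4:82330252-82330331, minus strand: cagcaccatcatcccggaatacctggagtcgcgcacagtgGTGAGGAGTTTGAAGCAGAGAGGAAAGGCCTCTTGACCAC
The single C4b row keeps a whole intron of 284 bases between coding exons. It is shown in full because the annotated C4b coding transcript does not hold it, with its first 6 and last 3 bases, the ends used by the splicing machinery, in capitals.
C4b-203, chr17:34728898-34729181, minus strand: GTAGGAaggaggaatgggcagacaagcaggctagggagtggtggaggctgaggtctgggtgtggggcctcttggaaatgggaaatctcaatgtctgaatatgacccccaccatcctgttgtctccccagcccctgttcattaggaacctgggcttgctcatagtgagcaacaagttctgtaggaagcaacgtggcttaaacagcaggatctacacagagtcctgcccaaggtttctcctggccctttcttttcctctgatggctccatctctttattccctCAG

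The libraries held between 3517967 and 5014389 counts, and the 73 rows took from 0.202% (5 × FAD hippocampus 2) to 0.329% (5 × FAD cortex 1) of them. Libraries 1 and 2 of the 5 × FAD mice stood apart from the other 8 in both regions. They held 0 counts on the Y-linked genes Kdm5d, Eif2s3y, Uty and Ddx3y and between 30468 and 46630 counts of Xist, whereas every WT library and library 3 of the 5 × FAD mice held at least 1074 Y-linked counts and at most 25 of Xist. The series states 2 females and 1 male in each group, which the WT libraries do not match, so genotype and sex cannot be told apart for these libraries. Results are therefore also given without libraries 1 and 2 of the 5 × FAD mice. This leaves 1 5 × FAD library in each region beside 3 WT libraries, so in those fits the spread comes from the WT libraries, the lone library is assumed to vary like them, and their adjusted p-values carry little weight. The labelled tissues were checked with region genes. Zbtb20, a hippocampal transcription factor, was higher in the hippocampus (log2 difference 1.62, SE 0.14, adjusted p = 3.38e-05), and Lamp5 and Cux1 were higher in the cortex. In bulk tissue, fewer astrocytes and less RNA in each astrocyte cannot be told apart. The number of mice behind each group is 3, and p-values measure the spread between these libraries.

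Levels are given as CPM, the counts of a gene's summed rows scaled to a library total of 1000000 after TMM correction, and levels of different genes are compared only as CPM per kilobase of transcript. Slc1a2 and Slc1a3, the glutamate transporters GLT-1 and GLAST, had the highest levels, 359 and 275 CPM per kb as a mean of the 12 libraries. The rank of Slc1a2 rests on the division by length, since its rows are only 193 to 342 bases long. They held 4902 counts in all, beside 55378 for Slc1a3. Mfge8, Pla2g7, Glul, Atp1b2 and Bcan followed at 98.4, 93.01, 89.3, 86.6 and 83.2 CPM per kb. These 5 changed places between groups, whose means for them lay between 61.4 (Pla2g7) and 131 CPM per kb (Mfge8), both in the WT cortex. The lowest levels were those of Gfap (0.883), Acsbg1 (1.01) and Slc6a11 (3.58 CPM per kb). Members of 1 functional class were therefore far apart in level, as the plot of levels shows.

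**Figure D1:**
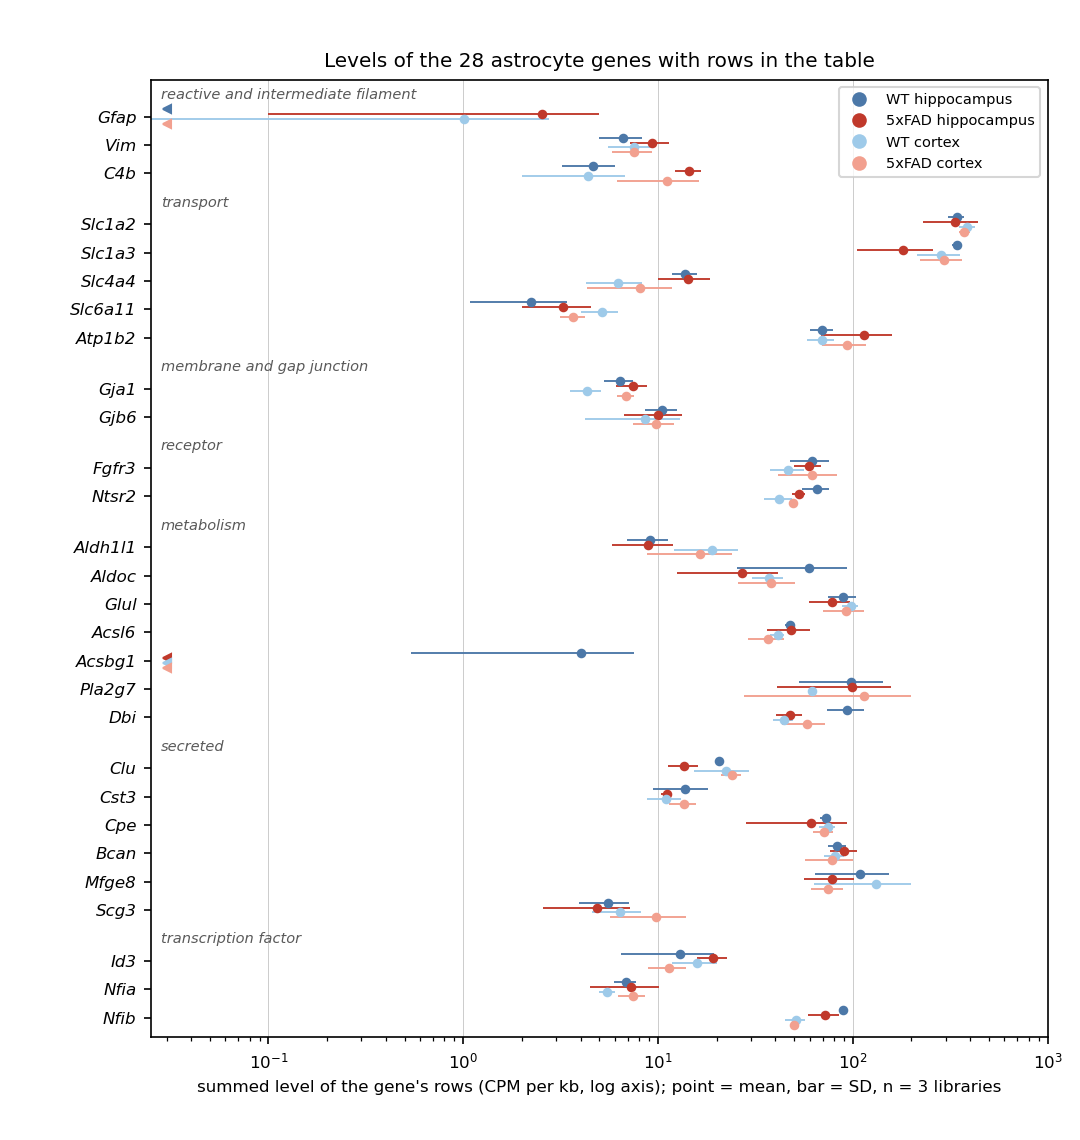
Summed level of the rows of each of the 28 genes in CPM per kb (log axis), as mean and SD of 3 libraries in each of the 4 groups, arranged by function; arrowheads at the left edge mark groups at 0. Slc1a2 and Slc1a3 lie highest, at 359 and 275 CPM per kb over the 12 libraries, and Gfap and Acsbg1 have groups at 0.

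The first comparison asked whether astrocyte transcripts differ between 5 × FAD and WT mice in the hippocampus. A gene was called when edgeR's quasi-likelihood test across all genes gave a Benjamini-Hochberg adjusted p under 0.05. After the filter on low counts, 25 of the 28 genes were tested, Gfap, Gjb6 and Acsbg1 being too low, and 0 were called, against 6 of 11345 genes (0.0529%) in the whole table. With DESeq2, 1 astrocyte gene was called, C4b. At an unadjusted p under 0.05 there were 6 of the 25, with 8.68% of all genes as background. C4b and Atp1b2 had the higher level in 5 × FAD mice, and Slc1a3, Dbi, Aldoc and Clu the lower. The 3 libraries of the groups did not overlap for 1 of the 25 genes higher in 5 × FAD mice (background 6.94% of all genes) and for 5 lower (background 9.84%). The median log2 difference of the 25 genes was 0.04, beside 0.03 over all genes tested, and 13 were positive and 12 negative.

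The reactive genes come first. C4b encodes complement component 4B, which astrocytes make near plaques. Its row held 20, 18 and 10 counts in the WT hippocampus libraries 1 to 3 and 45, 53 and 37 in the 5 × FAD hippocampus libraries, or 4.28, 3.84 and 2.27 against 11.1, 12.2 and 9.01 CPM. Every 5 × FAD library was above every WT library, with means of 3.46 ± 1.05 and 10.8 ± 1.62 CPM (SD, n = 3). The log2 difference was 1.67 (SE 0.33, adjusted p = 0.399), a 3.18-fold higher level that was not called with edgeR. DESeq2 gave 1.66 (adjusted p = 0.0411). With library 3 as the only 5 × FAD library it was 1.39 (adjusted p = 0.455).

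C4b has a near-identical neighbour, C4a, and 408 of the 719 stretches of 31 bases in the C4b row (56.7%) also occur in C4a transcripts, so reads can be divided between them in more than 1 way. The rows of C4a and C4b together held 167, 149 and 157 counts in the WT hippocampus and 484, 465 and 355 in the 5 × FAD hippocampus. The groups again did not overlap, and the log2 difference of the sum was 1.64 (SE 0.19, adjusted p = 0.0526). In the cortex the counts of the sum were 137, 152 and 103 for WT mice and 469, 277 and 399 for 5 × FAD mice, with a log2 difference of 1.51 (SE 0.17, adjusted p = 0.12). The 5 × FAD libraries were above the WT libraries in both regions for this sum, while neither difference was called. Most of its counts came from C4a. The largest C4a row, ENSMUST00000160679, held 104, 115 and 81 counts in the WT cortex and 381, 113 and 59 in the 5 × FAD cortex. Its log2 difference there was 0.83 (SE 0.62, adjusted p = 0.913), and 1.64 (SE 0.24, adjusted p = 0.223) in the hippocampus. The row ENSMUST00000160528 held 0 counts in the WT cortex and 27, 142 and 214 in the 5 × FAD cortex.

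Microglia also make complement around plaques, and their genes were measured in the same libraries. Trem2, a receptor of microglia, had 27.6, 19.4 and 32.3 CPM in the WT hippocampus and 176, 186 and 39.9 in the 5 × FAD hippocampus, high in libraries 1 and 2 and near the WT range in library 3. Of the 16 genes of a microglia list 7 had rows, and their summed level ranged from 37.8 to 47.8 CPM in the WT hippocampus and from 55.7 to 215 CPM in the 5 × FAD hippocampus. Trem2 is among the 7 and made up most of this sum in every hippocampus library, so the sum is not separate from it. Csf1r, C1qa, C1qb, Tyrobp, Cx3cr1, P2ry12, Tmem119, Ctss and Cst7 had no row in the table analysed here. The part of microglia in the C4b values was not tested.

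Vim encodes vimentin, an intermediate filament of reactive astrocytes. Its 3 rows summed to 8.12, 7.89 and 14.3 CPM in the WT hippocampus and 12.1, 16.1 and 12.4 in the 5 × FAD hippocampus, with overlapping groups and a log2 difference of 0.46 (SE 0.32, adjusted p = 0.685). The row with most counts, Vim-205 (58.2% of them), had overlapping groups and a log2 difference of 0.28 (SE 0.42, adjusted p = 0.884). Vim-203 held only 1 to 6 counts in a library. The row Vim-204 alone had counts of 12, 15 and 9 in WT libraries and of 20, 24 and 15 in 5 × FAD libraries. Its groups did not overlap in CPM, and its log2 difference was 0.86 (SE 0.34, adjusted p = 0.647). Gfap, the classical marker of reactive astrocytes, could not be compared. Its only row (ENSMUST00000127909, 356 bases) held 7, 0 and 4 counts in the 5 × FAD hippocampus, 0, 5 and 0 in the WT cortex, and 0 in the other 6 libraries. All 356 bases of this row lie within the span, introns included, of the lincRNA gene Gm26668 on the opposite strand.

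The transporters differed among themselves. Slc1a3 had 1435, 1304 and 1344 CPM in the WT hippocampus and 502, 416 and 1036 in the 5 × FAD hippocampus. All 3 5 × FAD libraries were below all WT libraries, but libraries 1 and 2 were far lower than library 3. The log2 difference was -1.02 (SE 0.34, adjusted p = 0.527) and was not called. Without 5 × FAD hippocampus 3 the log2 difference was -1.53 (adjusted p = 0.0347), a call, where 34 of 11720 genes in the whole table were called. That fit keeps only 5 × FAD libraries 1 and 2, with 0 Y-linked counts and high Xist, so genotype and sex cannot be told apart in it. With library 3 as the only 5 × FAD library against the 3 WT libraries the log2 difference was -0.37.

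Within Slc1a3, 1 row carried the difference. Slc1a3-202 (ENSMUST00000125997, chr15:8634726-8651506, minus strand) held 96.1% of the gene's counts, at 6465, 5888 and 5728 in the WT hippocampus and 1870, 1624 and 4070 in the 5 × FAD hippocampus (log2 difference -1.10, SE 0.37, adjusted p = 0.612). The next largest rows, Slc1a3-206, Slc1a3-205 and Slc1a3-207, had log2 differences of -0.48, 0.13 and -0.11, and their groups overlapped. Slc1a3-202 keeps an intron of 1263 bases between coding exons, whose first bases are printed above. It is the row with the most counts of all 73.

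Slc1a2, the transporter that carries most glutamate uptake in the adult forebrain, had 86.0, 101 and 85.5 CPM in the WT and 60.0, 84.1 and 116 in the 5 × FAD hippocampus. The groups overlapped, and the log2 difference was -0.02 (SE 0.25, adjusted p = 0.984). The lowest of the 6 was 5 × FAD library 1, and as for Slc1a3, 5 × FAD library 3 stood above libraries 1 and 2. Atp1b2, the beta-2 subunit of the sodium-potassium pump, had 182, 188 and 252 CPM in the WT and 522, 222 and 331 in the 5 × FAD hippocampus. Its groups overlapped, since 5 × FAD library 2 lay below WT library 3, and the log2 difference was 0.84 (SE 0.32, adjusted p = 0.541). Without 5 × FAD library 1, the highest, it was 0.46 (adjusted p = 0.764). Slc4a4, a sodium bicarbonate cotransporter, and Slc6a11, the GABA transporter GAT-3, had log2 differences of 0.09 (SE 0.32, adjusted p = 0.944) and 0.58 (SE 0.54, adjusted p = 0.757) with overlapping groups.

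Among the metabolic genes, Dbi encodes the acyl-CoA binding protein, also known as diazepam binding inhibitor. Its rows summed to 36.3, 52.3 and 49.6 CPM in the WT and 29.5, 23.7 and 21.9 in the 5 × FAD hippocampus, with every 5 × FAD library below every WT library. The log2 difference was -0.83 (SE 0.23, adjusted p = 0.507), not a call, and without libraries 1 and 2 of the 5 × FAD mice it was -1.05 (adjusted p = 0.304). The rows shared the difference unequally, and Dbi-203 held most of it in mean CPM. Only 8.1% of the bases of Dbi-203 lie outside coding exons, so little sets it apart from mRNA by sequence. Dbi-205, which keeps intron sequence, had 24.4, 25.8 and 24.1 CPM in WT and 20.9, 16.1 and 15.6 in 5 × FAD libraries (log2 difference -0.48, SE 0.22, adjusted p = 0.668). Dbi-203 had 4.28, 23.04 and 21.2 against 3.94, 2.99 and 2.19 CPM (log2 difference -2.38, SE 0.66, adjusted p = 0.601), with WT library 1 far below WT libraries 2 and 3 and close to the 5 × FAD libraries. Dbi-206 had overlapping groups and a log2 difference of -0.19 (SE 0.38, adjusted p = 0.921).

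Aldoc, brain aldolase of glycolysis and a marker spread evenly over astrocytes, had 23.3, 72.5 and 26.4 CPM in the WT and 8.36, 13.6 and 25.1 in the 5 × FAD hippocampus. The groups overlapped, and the log2 difference was -1.33 (SE 0.55, adjusted p = 0.569). WT library 2 was the highest of the 6, and the row Aldoc-204 (ENSMUST00000128032) held 229 counts in it and 20 in 5 × FAD cortex 2, and 0 in the other 10 libraries. Every base of it lies in exons that coding Aldoc transcripts share. Without this row the log2 difference was -0.62 (adjusted p = 0.632). Aldoc-206, the largest row, had 17.3, 17.9 and 18.4 CPM in WT and 3.94, 8.98 and 14.1 in 5 × FAD libraries, groups that did not overlap, with a log2 difference of -0.97 (SE 0.44, adjusted p = 0.663). The other metabolic genes that were tested had log2 differences between -0.13 (Glul, glutamine synthetase) and 0.26 (Pla2g7, a phospholipase that cleaves platelet-activating factor), with overlapping groups. They include Aldh1l1, the folate enzyme used as a pan-astrocyte marker (0.05), and Acsl6, an acyl-CoA synthetase (0.06).

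Acsbg1, another acyl-CoA synthetase, held 10, 0 and 9 counts in the WT hippocampus and 0 in the other 9 libraries, too few for the test. A count of 0 allows up to 3 counts, between 0.598 and 0.853 CPM in these libraries before TMM correction, and these limits cover counting error only.

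Of the secreted proteins, Clu, which encodes clusterin (apolipoprotein J), had 17.5, 15.8 and 16.8 CPM in the WT and 9.59, 9.90 and 13.4 in the 5 × FAD hippocampus. The groups did not overlap, the log2 difference was -0.56 (SE 0.24, adjusted p = 0.571), and it was -0.30 (adjusted p = 0.797) without libraries 1 and 2 of the 5 × FAD mice. Cst3 (cystatin C), Cpe (carboxypeptidase E), Bcan (brevican), Mfge8 (lactadherin) and Scg3 (secretogranin III) had log2 differences between -0.51 and 0.24, all with overlapping groups. For Mfge8, WT library 2 had 325 CPM beside 135 and 101 in WT libraries 1 and 3, nearly all of it on the row Mfge8-209.

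The receptors, gap junction proteins and transcription factors remain. The receptors Fgfr3 (a fibroblast growth factor receptor) and Ntsr2 (a neurotensin receptor) had log2 differences of 0.04 (SE 0.21, adjusted p = 0.96) and -0.26 (SE 0.17, adjusted p = 0.673). The 5 × FAD libraries of Ntsr2, at 153, 151 and 133 CPM, lay just below the WT libraries at 177, 211 and 154. Gja1, the gap junction protein connexin 43, had 0.25 (SE 0.24, adjusted p = 0.758) with overlapping groups, and Gjb6, connexin 30, was too low to be tested in either region. The transcription factors Id3, Nfia and Nfib, which act in astrocyte formation, had 0.60, 0.13 and -0.25, and the groups of Nfib did not overlap.

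**Figure D2:**
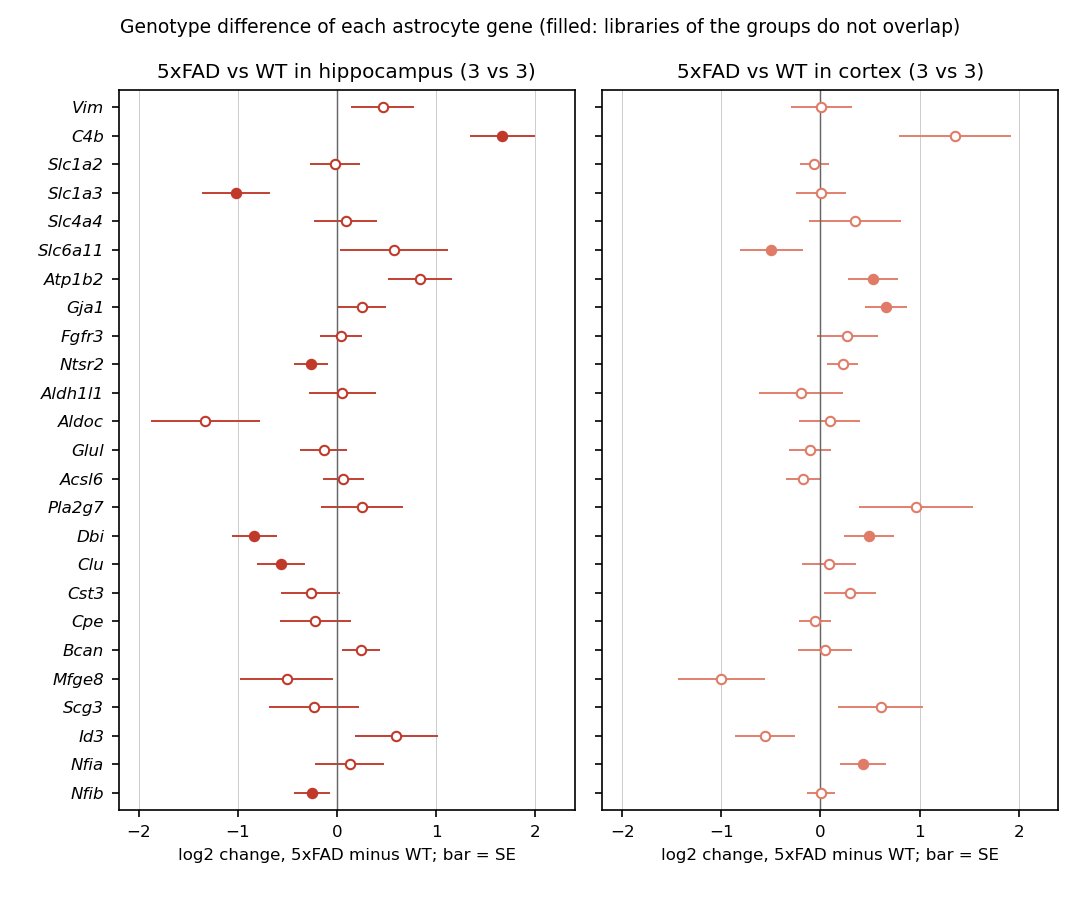
Log2 difference (5 × FAD minus WT, bars give the SE, 3 against 3 libraries) of the 25 tested genes in the hippocampus (left) and the cortex (right); filled points mark genes whose libraries do not overlap between groups. C4b has the highest value in both regions, 1.67 and 1.36, while Slc1a3 is at -1.02 in the hippocampus and 0.00 in the cortex.

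Among single rows, 0 of the 55 tested in the hippocampus were called with edgeR, against 4 of 21894 rows in the table (0.0183%), and DESeq2 called 0. At an unadjusted p under 0.05 there were 4 of the 55 rows, 2 in each direction, with 7.58% of all rows as background. The median log2 difference of the member rows was -0.07, beside 0.02 over all rows.

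The same comparison in the cerebral cortex again gave 0 calls among 25 tested genes with edgeR, against 2 of 11409 genes (0.0175%), and 0 with DESeq2. An unadjusted p under 0.05 was found for 2 of the 25 (background 6.68%), C4b and Gja1, both higher in 5 × FAD mice. The groups did not overlap for 4 genes higher in 5 × FAD mice, Gja1, Atp1b2, Dbi and Nfia (background 6.68% of all genes), and for 1 lower, Slc6a11 (background 6.25%). The median log2 difference was 0.09, beside -0.001 over all genes, with 17 positive and 8 negative.

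C4b had 3.79, 1.29 and 4.79 CPM in the WT cortex and 10.9, 4.03 and 10.2 in the 5 × FAD cortex. Libraries 1 and 3 of the 5 × FAD mice were above the WT range, and library 2 lay within it. The log2 difference was 1.36 (SE 0.57, adjusted p = 0.739), and 1.64 (adjusted p = 0.532) without libraries 1 and 2 of the 5 × FAD mice. In this region the microglia list summed to between 51.0 and 75.4 CPM in WT and between 42.4 and 261 CPM in 5 × FAD libraries, lowest in library 3, where C4b was at 10.2 CPM. Trem2 had 47.9, 53.4 and 36.3 CPM in WT and 232, 185 and 19.7 in 5 × FAD cortex libraries. It made up most of the list's sum in all cortex libraries but 5 × FAD library 3.

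Gja1 had 17.1, 15.3 and 11.8 CPM in the WT and 26.2, 22.0 and 22.2 in the 5 × FAD cortex, so that all 5 × FAD libraries were higher. Its log2 difference was 0.66 (SE 0.21, adjusted p = 0.723), and 0.59 (adjusted p = 0.637) without libraries 1 and 2. Nearly all of these counts (98.4%) came from Gja1-204, a single-exon row that holds no base of the coding sequence. Atp1b2 had 234, 216 and 166 CPM in WT and 413, 244 and 235 in 5 × FAD libraries (log2 difference 0.53, SE 0.25, adjusted p = 0.755). Dbi had 24.9, 23.3 and 17.7 CPM in WT and 41.0, 26.6 and 25.4 in 5 × FAD libraries (log2 difference 0.49, SE 0.26, adjusted p = 0.771). For Nfia the WT libraries had 8.06, 9.70 and 9.29 CPM and the 5 × FAD libraries 13.5, 9.95 and 13.1 (log2 difference 0.43, SE 0.24, adjusted p = 0.776). For all 3 the lowest 5 × FAD library lay only slightly above the highest WT library. Slc6a11, at 4.98, 6.46 and 4.22 CPM in WT and 3.11, 4.03 and 4.08 in 5 × FAD libraries, had a log2 difference of -0.49 (SE 0.32, adjusted p = 0.804).

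Slc1a3, Aldoc and Clu, whose values were lower in the 5 × FAD hippocampus, had log2 differences near 0 in the cortex. Slc1a3 had 1452, 843 and 1125 CPM in WT and 1390.3, 1214 and 845 in 5 × FAD cortex libraries, a log2 difference of 0.00 (SE 0.25, adjusted p = 0.998). Aldoc and Clu had 0.10 (SE 0.31, adjusted p = 0.975) and 0.09 (SE 0.27, adjusted p = 0.974). The lowest value of the region was that of Mfge8, -1.001 (SE 0.44, adjusted p = 0.739), with 148, 148 and 421 CPM in WT libraries, and without WT cortex 3 it was -0.30. Pla2g7 had 0.96 (SE 0.58, adjusted p = 0.788), with 5 × FAD libraries at 185, 30.4 and 148 CPM, wider apart than the groups. Slc1a2, Slc4a4, Fgfr3, Ntsr2, Aldh1l1, Glul, Acsl6, Cst3, Cpe, Bcan, Scg3, Vim, Id3 and Nfib had overlapping groups and log2 differences between -0.56 (Id3) and 0.61 (Scg3).

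**Figure D3:**
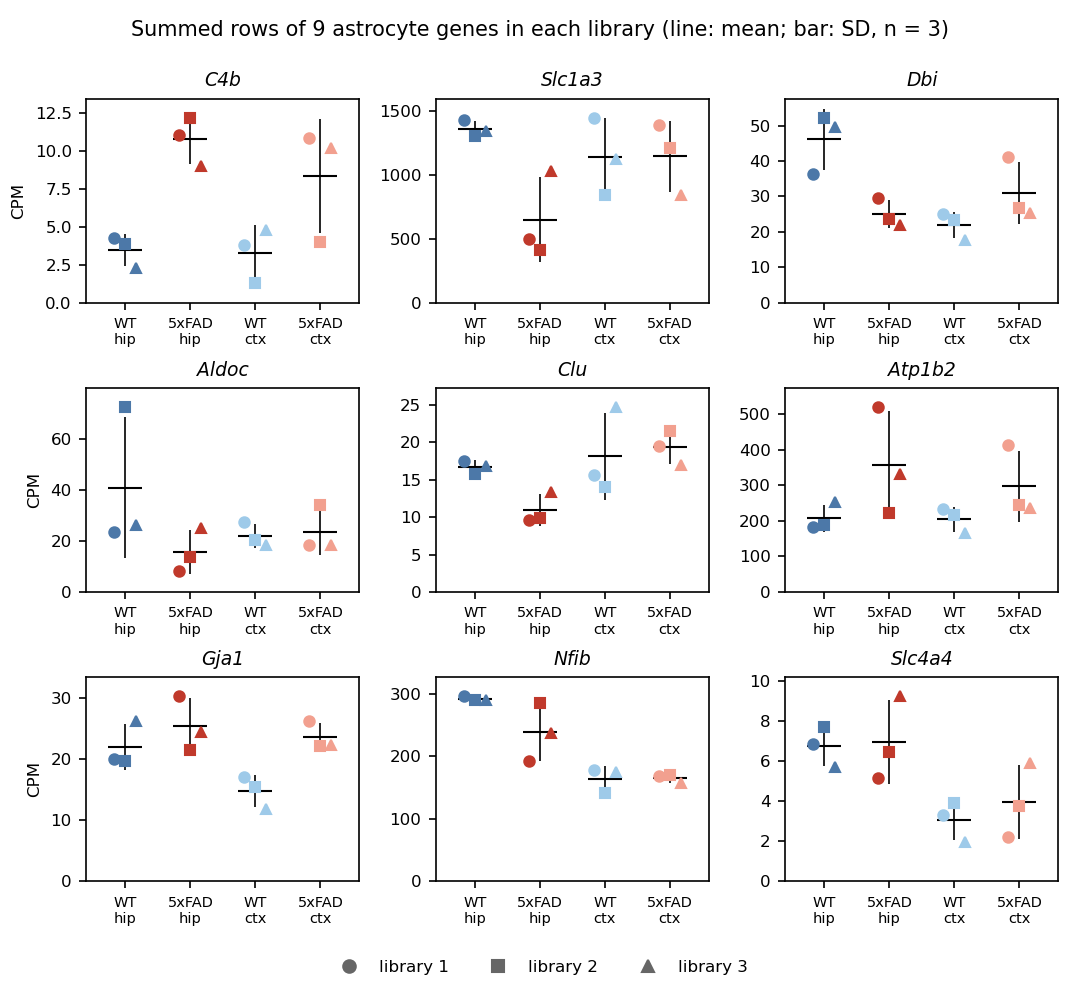
CPM of the summed rows of 9 genes in each library (circle, square and triangle for libraries 1, 2 and 3; horizontal line and bar for mean and SD, n = 3) in WT and 5 × FAD hippocampus (hip) and cortex (ctx). In the 5 × FAD hippocampus C4b lies at 11.1, 12.2 and 9.01 CPM, above the WT libraries, and Slc1a3 at 502, 416 and 1036, below them.

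Of 58 member rows tested in the cortex, 0 were called with edgeR, against 12 of 21999 in the table (0.0545%), and 0 with DESeq2. There was 1 row at an unadjusted p under 0.05, Gja1-204, with 5.34% of all rows as background.

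Sums hid unlike rows in several genes, as the plot of stacked rows shows. In Mfge8, the row Mfge8-209 held 82.4% of the counts, from 250 in 5 × FAD hippocampus 2 to 1421 in WT hippocampus 2 and 1380 in WT cortex 3. Those libraries were not high in the sum of the other 6 rows. In Pla2g7 the row Pla2g7-202 ranged from 76 counts in WT cortex 2 to 568 in 5 × FAD cortex 3, and Pla2g7-203 from 14 in 5 × FAD cortex 2 to 425 in 5 × FAD cortex 1. The 2 rows of Pla2g7 did not follow each other across the libraries. Ntsr2-205 and Acsl6-211, each the only row of its gene, lay between 339 and 987 and between 504 and 1112 counts. Some rows have bases within the span, introns included, of another gene on the opposite strand. These are Acsl6-211 (Gm12224), Aldh1l1-204 (Gm15756), Fgfr3-205 (G630022F23Rik) and both Pla2g7 rows (1700071M16Rik). The libraries kept the strand, but whether the counting used it is not given in the sources used here, so these values are uncertain. Aldh1l1-202 has 105 of its 400 bases within the span of the lincRNA gene Gm45901 on the same strand, where the strand does not separate them.

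**Figure D4:**
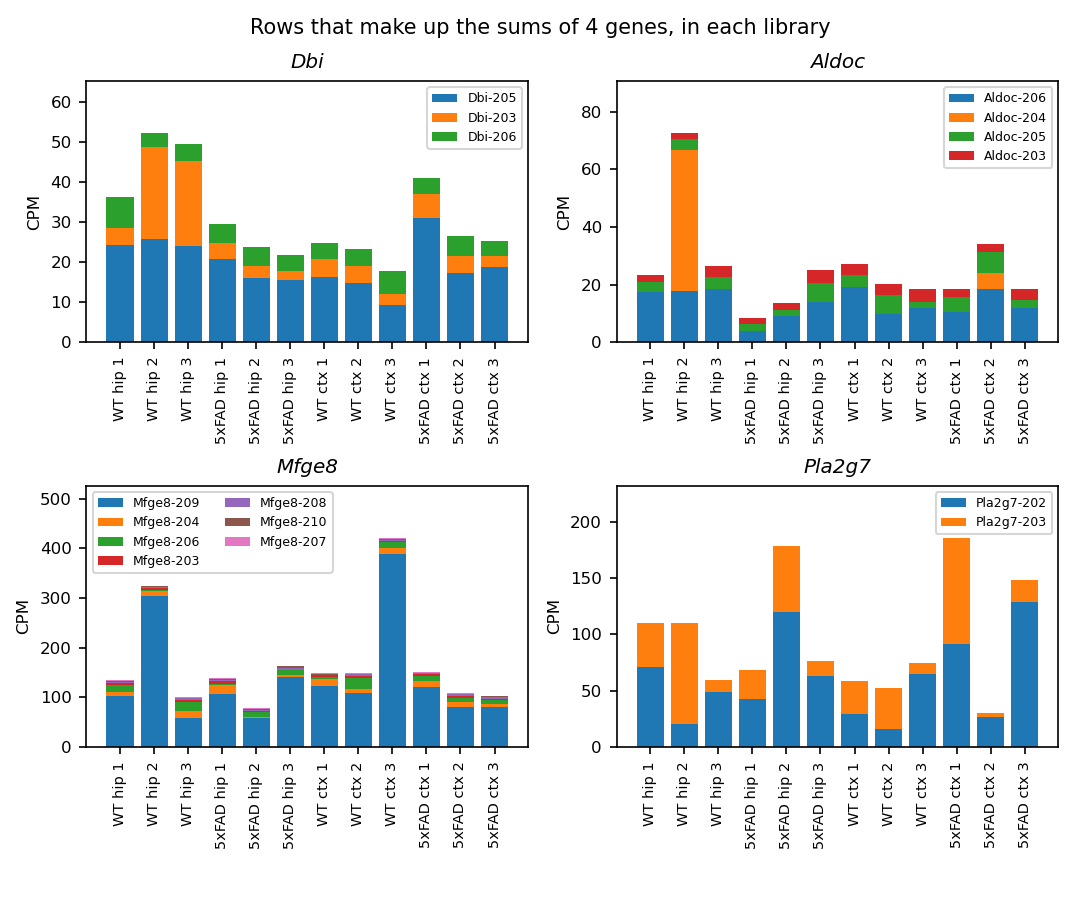
Stacked CPM of the rows of Dbi, Aldoc, Mfge8 and Pla2g7 in each of the 12 libraries (hip, hippocampus; ctx, cortex). Aldoc-204 appears in WT hippocampus 2 and 5 × FAD cortex 2 only, Dbi-203 is high in WT hippocampus 2 and 3, and Mfge8-209 is high in WT hippocampus 2 and WT cortex 3.

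The second design factor was the region. Over all 12 libraries with genotype in the model, 1 of 25 tested astrocyte genes was called, Nfib, higher in the hippocampus. Of all 11245 genes tested, 796 (7.08%) were called, 3.73% as higher in the hippocampus. DESeq2 called 2, Nfib and Slc4a4. At an unadjusted p under 0.05 there were 6 of the 25 (background 19.4%), of which Nfib, Slc4a4, Ntsr2 and Acsl6 were higher in the hippocampus and Clu and Aldh1l1 higher in the cortex. All 6 hippocampus libraries lay above all 6 cortex libraries for 1 gene, again Nfib (background 2.58% of all genes in this direction). The median log2 difference, hippocampus minus cortex, was 0.15, beside 0.005 over all genes.

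Nfib encodes nuclear factor I/B, a transcription factor that takes part in the formation of astrocytes and of the hippocampus. Its 5 rows summed to 296, 290.0 and 289.6 CPM in the WT hippocampus and 192, 285 and 237 in the 5 × FAD hippocampus. They summed to 177, 140.2 and 174 CPM in the WT cortex and 168, 170.4 and 157 in the 5 × FAD cortex. The lowest hippocampus library, 5 × FAD library 1, was above the highest cortex library, WT library 1. Nfib was higher in the hippocampus than in the cortex by 0.69 (SE 0.12, adjusted p = 0.00311) on the log2 scale, or 1.61-fold. In WT libraries alone the log2 difference was 0.81 (SE 0.13, adjusted p = 0.0243), and in 5 × FAD libraries alone it was 0.54 (SE 0.19, adjusted p = 0.318), which was not called. Without libraries 1 and 2 of the 5 × FAD mice the Nfib difference was 0.75.

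Nfib-208, the row with most counts, and Nfib-209 run on into introns, whose first bases are printed above. Of 56 member rows tested between regions these 2 were called with edgeR, both higher in the hippocampus, against 665 of 21383 rows in the table (3.11%; 1.73% higher), and 8 had an unadjusted p under 0.05 (background 14%). Nfib-208 (ENSMUST00000135024, chr4:82495984-82505779, minus strand) had 193, 172 and 196 CPM in the WT hippocampus and 116, 180.1 and 156 in the 5 × FAD hippocampus. In the cortex it had 102, 81.0 and 104 CPM in WT and 114, 107 and 100.1 in 5 × FAD libraries. The lowest hippocampus library was above the highest cortex library, and the log2 difference was 0.73 (SE 0.14, adjusted p = 0.0178). Nfib-209 (ENSMUST00000140874, chr4:82328594-82505310, minus strand) had 0.84 (SE 0.20, adjusted p = 0.0406) with overlapping libraries. Nfib-210 and Nfib-207, the other rows tested, had 0.54 (SE 0.18, adjusted p = 0.174) and 0.40 (SE 0.18, adjusted p = 0.35) and were not called. All 4 were higher in the hippocampus by their fitted values. The calls of single rows were less stable than that of the gene, since Nfib-208 was not called without WT hippocampus 3 (adjusted p = 0.05) or WT cortex 1 (adjusted p = 0.0505), and Nfib-209 was not called in 10 of the 12 fits that left out 1 library.

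**Figure D5:**
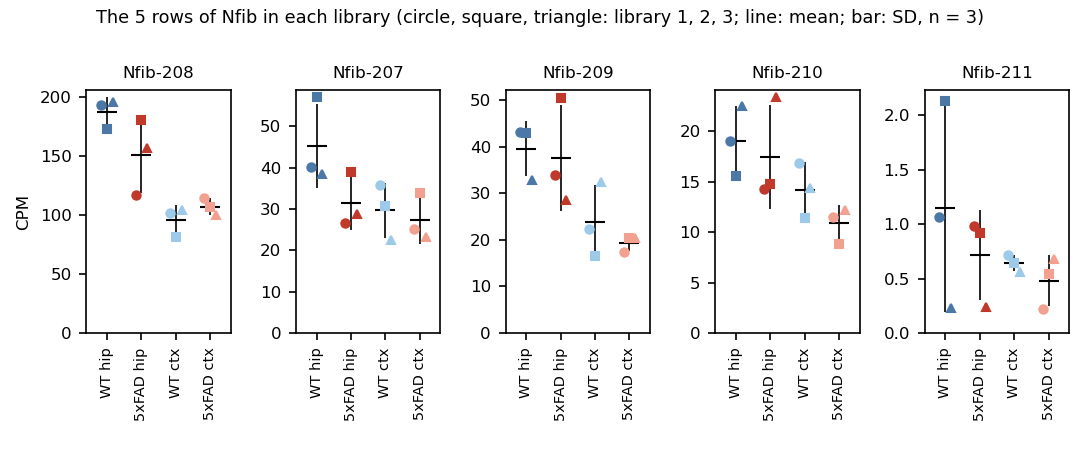
CPM of the 5 rows of Nfib in each library (circle, square and triangle for libraries 1, 2 and 3; line and bar for mean and SD, n = 3). Nfib-208 lies between 116 and 196 CPM in the hippocampus and between 81.0 and 114 CPM in the cortex.

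Slc4a4 had 6.84, 7.68 and 5.69 CPM in the WT and 5.17, 6.45 and 9.25 in the 5 × FAD hippocampus, against 3.32, 3.88 and 1.97 in the WT cortex and 2.22, 3.76 and 5.89 in the 5 × FAD cortex. Only 5 × FAD cortex 3 reached into the range of the hippocampus. The log2 difference was 0.97 (SE 0.27, adjusted p = 0.0513), just short of a call, and DESeq2 gave 0.96 (adjusted p = 0.0252). Aldh1l1 had the opposite order, with 3.85, 5.12 and 5.23 CPM in the WT hippocampus and 11.4, 6.46 and 9.57 in the WT cortex. In 5 × FAD mice it had 3.69, 6.22 and 4.38 CPM in the hippocampus and 9.54, 10.8 and 3.85 in the cortex, where library 3 lay in the range of the hippocampus. The regions overlapped, and the log2 difference was -0.84 (SE 0.27, adjusted p = 0.0873) over all libraries. The rows of Aldh1l1 differed unequally. Aldh1l1-202, with 0 to 29 counts in a library, had means of 1.40 and 1.19 CPM in the WT and 5 × FAD hippocampus and 4.62 and 3.54 in the cortex. Aldh1l1-204, the largest row, had 2.5 and 2.9 CPM in the hippocampus and 3.7 and 3.5 in the cortex. The means of Aldh1l1-205 were 0.996 CPM or less. Without 5 × FAD cortex 3 both genes were called, at 1.17 (adjusted p = 0.0209) for Slc4a4 and -1.001 (adjusted p = 0.0177) for Aldh1l1. That fit drops the library that ran against both differences, so these calls carry little weight. Its 5 × FAD cortex libraries are 1 and 2, with 0 Y-linked counts. Neither gene was called in WT libraries alone (adjusted p = 0.144 for Slc4a4 and 0.162 for Aldh1l1). Nor was either called in 5 × FAD libraries alone (adjusted p = 0.528 and 0.57), though the signs were the same.

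The other genes were not called between regions. Ntsr2, Acsl6 and Gja1 had 0.38 (SE 0.13, adjusted p = 0.122), 0.31 (SE 0.14, adjusted p = 0.236) and 0.34 (SE 0.16, adjusted p = 0.268), hippocampus minus cortex. Clu, Slc6a11 and Scg3 had -0.46 (SE 0.20, adjusted p = 0.219), -0.68 (SE 0.33, adjusted p = 0.285) and -0.63 (SE 0.32, adjusted p = 0.326). The glutamate transporters Slc1a2 and Slc1a3 had -0.20 (SE 0.14, adjusted p = 0.496) and -0.28 (SE 0.27, adjusted p = 0.654), and Glul, whose enzyme turns the glutamate they bring in to glutamine, had -0.17 (SE 0.15, adjusted p = 0.614). The remaining 13 genes had log2 differences between -0.14 (Mfge8) and 0.39 (Dbi). The groups overlapped for all of these genes. Dbi was called in WT libraries alone, where its log2 difference was 1.04 (SE 0.20, adjusted p = 0.044), and had -0.29 (SE 0.26, adjusted p = 0.707) in 5 × FAD libraries alone. No single row of Dbi was called in WT libraries alone. Dbi-203 had 2.05 (SE 0.63, adjusted p = 0.256), Dbi-205 0.85 (SE 0.24, adjusted p = 0.216) and Dbi-206 0.13 (SE 0.38, adjusted p = 0.933). Dbi-203 held 20, 108 and 93 counts in the WT hippocampus and 19, 19 and 10 in the WT cortex.

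Whether the genotype difference itself depended on the region was tested as an interaction over the 12 libraries. With edgeR, 0 of 26 astrocyte genes were called, as were 0 of 12109 genes (0.0%), and DESeq2 called 0 astrocyte genes. An unadjusted p under 0.05 was found for 3 of the 26 (background 7.0%), Dbi, Ntsr2 and Slc1a3. In all 3 the genotype difference, 5 × FAD minus WT, was lower in the hippocampus than in the cortex. Their interaction terms, the log2 difference in the hippocampus minus that in the cortex, were -1.35 (SE 0.34, adjusted p = 0.647), -0.52 (SE 0.22, adjusted p = 0.698) and -1.05 (SE 0.46, adjusted p = 0.699). For Dbi the groups did not overlap in either region, 5 × FAD being below WT in the hippocampus and above it in the cortex. Part of its WT hippocampus level came from the row Dbi-203, which was high in WT hippocampus libraries 2 and 3 only. Without libraries 1 and 2 of the 5 × FAD mice the terms were -1.26 (adjusted p = 0.462) for Dbi, -0.60 (adjusted p = 0.628) for Ntsr2 and 0.06 (adjusted p = 0.983) for Slc1a3. The interaction of C4b was 0.28 (SE 0.68, adjusted p = 0.963). Of 59 member rows, 0 were called with edgeR and 0 with DESeq2, 3 had an unadjusted p under 0.05 (background 6.89%), and 2 of 24632 rows in the table were called (0.00812%).

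Other genes of astrocytes were counted from lists that do not overlap the 44. Of 10 genes of the shared reactive programme 6 had rows and 5 were tested, with 0 calls by edgeR or DESeq2 in either region. At an unadjusted p under 0.05 there was 1 in each region (background 8.68% of all genes in the hippocampus and 6.68% in the cortex), and the median log2 differences of its genes were -0.53 in the hippocampus and 0.34 in the cortex, beside 0.03 and -0.001 over all genes. In the hippocampus it was Aspg, an asparaginase of reactive astrocytes, at 1.07, 2.56 and 0.91 CPM in the WT and 4.92, 5.30 and 2.19 in the 5 × FAD hippocampus (log2 difference 1.48, SE 0.55, adjusted p = 0.541). In the cortex it was Lcn2, lipocalin 2, with the lower level in 5 × FAD mice (-1.36, SE 0.47, adjusted p = 0.723). Of 11 genes of the inflammation-induced programme 8 had rows and 3 were tested, with 0 calls by either tool and 0 at an unadjusted p under 0.05 in either region, and medians of 0.62 and 0.04. Of 30 further astrocyte genes 15 had rows, and 0 of 12 tested in the hippocampus and 0 of 13 in the cortex were called by either tool, with 2 and 0 at an unadjusted p under 0.05 and medians of 0.18 and 0.09. Between regions 1 of 12 was called, a share near the 7.08% of all genes, and it was Rorb, a nuclear receptor also used by cortical neurons, lower in the hippocampus (log2 difference -1.14, SE 0.19, adjusted p = 0.00289).

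Lists of other cell types gave the following summed levels beside these results. In the hippocampus, 6 oligodendrocyte genes summed to between 382 and 486 CPM in WT and between 536 and 601 CPM in 5 × FAD libraries, and in the cortex to between 329 and 520 and between 582 and 641 CPM. Endothelial genes (4 of 6 with rows) ranged from 53.9 to 63.1 CPM in the WT and from 35.2 to 55.5 CPM in the 5 × FAD hippocampus, and in the cortex from 59.4 to 75.2 and from 75.5 to 80.4 CPM. Neuronal genes (8 of 12 with rows) ranged from 1446 to 3350 CPM in the WT and from 1828 to 7096 CPM in the 5 × FAD hippocampus, highest in library 1. The choroid plexus gene Kl was higher in the hippocampus than in the cortex (log2 difference 2.69, SE 0.52, adjusted p = 0.00705), and Folr1 was at 0 in every library. Ependymal genes (2 of 4 with rows) were at 12.5 CPM or less, and the 2 oligodendrocyte precursor genes ranged from 48.4 to 195 CPM. Between genotypes edgeR called 0 genes of these lists in either region, and DESeq2 called Trem2 in the hippocampus alone. Trem2 in the hippocampus and the myelin gene Cnp in both regions had the higher level in 5 × FAD mice at an unadjusted p under 0.05. Slc17a7, a glutamate vesicle transporter, also had an unadjusted p under 0.05 in both regions, with opposite signs, a log2 difference of 1.79 (SE 0.76, adjusted p = 0.57) in the hippocampus and -0.47 (SE 0.14, adjusted p = 0.723) in the cortex. The median log2 differences of the tested genes in the hippocampus and the cortex were 0.72 and 0.80 for microglia, -0.16 and 0.46 for oligodendrocytes, 0.50 and -0.09 for neurons, and -0.37 and 0.23 for endothelial cells. For oligodendrocytes in the hippocampus the median was thus below 0 although the summed level was higher in 5 × FAD mice. The part of any of these cell types in the astrocyte values was not tested.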

How the data were processed

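Strand-specific paired-end libraries were made from RNA depleted of ribosomal RNA. The paper on the series also describes removal of linear RNA with RNase R, and whether these libraries had that step could not be told. The authors deposited 1 table of raw counts per non-coding transcript for the 12 libraries, and its program, genome build and annotation are not given in the sources used here. The submitters' processing notes name Trimmomatic 0.36 and edgeR. Transcript names, coordinates and sequences came from GENCODE M21 (GRCm38), which held 99.53% of the Ensembl rows, and 222 rows of the table are protein-coding there, none of them an astrocyte row. Counts were tested as rows and as sums per gene over the whole table with edgeR 4.0.16 in R 4.3.3 (filterByExpr, TMM, quasi-likelihood test, Benjamini-Hochberg adjustment, threshold 0.05), and the code was first tested on simulated data. Genotypes were compared within each region on 6 libraries, and regions and the interaction on 12. SE was the log2 difference divided by the square root of F. DESeq2 1.42.0, other scalings and filters, omission of libraries and a replicate block were alternatives. Groups did not overlap when the lowest CPM of one was above the highest of the other. Libraries held 3517967 to 5014389 counts, at which 3 counts equal 0.598 to 0.853 CPM before TMM correction.

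All member genes were to be named, with the row of most counts, every called row or gene and up to 5 non-overlapping genes in each direction. Other rows, and genes of other lists that were not called, were named after their values were seen. The sum of C4a and C4b was also added after the data were seen. The members and lists were chosen with earlier results of these data known. The single-gene values of 1 gene in the lists of other cell types are not reported here.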

Additional observations from a re-analysis of the deposited data

How the results depend on the processing

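Of 3469 log2 differences recomputed under the alternatives, 3210 kept their sign and their side of the threshold, 10 passed it only under the alternative, and 21 no longer passed it. The sign changed in 228, and 0 of these were called in either fit. They include the Slc1a3 interaction, which was 0.06 without libraries 1 and 2 of the 5 × FAD mice, and the region difference of Dbi, which was -0.29 in 5 × FAD libraries alone. In the hippocampus, DESeq2 called 1 astrocyte gene where edgeR called 0, and leaving out 1 library gave 0 to 1 (Slc1a3, without 5 × FAD hippocampus 3). Of all genes, DESeq2 called 82 of 11345, and edgeR without 5 × FAD hippocampus 3 called 34 of 11720. Between regions edgeR called 1 astrocyte gene and DESeq2 called 2, where 796 and 1122 of all 11245 genes were called. Leaving out 1 library gave 1 to 3 astrocyte genes, with 598 to 954 called in the whole table. WT libraries alone gave 2 (Nfib and Dbi), with 400 of 11431 genes called in the whole table. The 5 × FAD libraries alone gave 0, with 22 of 11404 called in the whole table. Of the 2 rows called between regions, leaving out 1 library left 0 to 2, no filter on low counts left 1, omission of libraries 1 and 2 of the 5 × FAD mice left 1, and WT or 5 × FAD libraries alone left 0. The Nfib difference stayed between 0.54 and 0.81 under all alternatives. In the cortex and for the interaction, 0 astrocyte genes or rows were called by edgeR or DESeq2 under every alternative run, with 2 and 3 genes at an unadjusted p under 0.05 in the edgeR tests. Across the whole table DESeq2 called more genes, 82 against 6 in the hippocampus, 53 against 2 in the cortex, 1122 against 796 between regions and 20 against 0 for the interaction. For rows it called 127 against 4, 102 against 12, 1186 against 665 between regions and 91 against 2 for the interaction.

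Whether a shared number marks the same mouse in both regions is not stated. With the number as a replicate block, 2 astrocyte genes (Nfib and Slc4a4) and 0 astrocyte rows were called between regions, and 0 astrocyte genes or rows in the other comparisons. In the whole table that block gave 544 of 11245 genes and 282 of 21383 rows between regions. Correlations of the deviations of same-numbered hippocampus and cortex libraries ranged from 0.006 to 0.1324, and those of differently numbered ones from -0.106 to 0.0581. Not every library correlated best with its own number. The Y-linked and Xist counts set the same 5 × FAD numbers apart in both regions, so a shared mouse was not excluded. The main tests between regions and of the interaction took the libraries as independent, and their p-values do not allow for such pairing. Between genotypes the numbers name different animals. With 3 libraries a group and rows such as C4b at 6 to 53 counts, the absence of calls between genotypes does not show that differences, large ones included, were absent.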
